A study of Mus musculus with 10 samples.

Results

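A set of 271 regions of open chromatin that stood higher in regulatory T cells (Tregs) of the spleen than in Tregs of the lung, in both genotypes, was examined across 10 ATAC-seq libraries. ATAC-seq counts the DNA fragments that a transposase releases from accessible chromatin, and the regions (peaks) are those of the deposited count table. A peak was chosen from CPM (counts per 1000000 of each library's column total) when it lay on chromosomes 1 to 19, when its lowest value in the 6 spleen libraries was at least 1.5 times its highest value in the 4 lung libraries, and when that lowest spleen value was at least 3 CPM. The 271 peaks are 0.287% of the 94486 autosomal peaks in a table of 97385, and 0.662% of the 40910 autosomal peaks that reached 3 CPM in every spleen library. Since the values of spleen and lung chose the peaks, the difference between the tissues is described here and not tested. The study asked how Vps34, the class III phosphatidylinositol 3-kinase encoded by Pik3c3, shapes Tregs early in life. All mice were 10 days old and carried the Foxp3Cre allele, which drives Cre and the YFP reporter in cells that express Foxp3. The Vps34-deficient mice were Foxp3CrePik3c3 fl/fl, so that deletion is directed to cells that express Foxp3, and the controls were Foxp3Cre with Pik3c3 +/+ or +/fl, so that some controls may carry 1 floxed allele. CD4+Foxp3-YFP+TCRb+ cells were sorted from spleen (2 control and 4 Vps34-deficient libraries by the labels, although the methods text swaps these sizes) and from lung (2 control and 2 Vps34-deficient libraries), and the labels do not say whether each library is a separate mouse.

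Most cell-type differences in accessibility fall on enhancers, short elements away from gene starts at which transcription factors bind. In Tregs these sites are bound by RUNX, ETS, TCF/LEF and forkhead factors and, after signalling through the T cell receptor (TCR), by NFAT, by AP-1 (dimers of Fos, Jun and Batf proteins) and by IRF factors, which can bind beside AP-1. Spleen Tregs are largely central cells that recirculate through lymphoid organs, whereas Tregs of the lung are richer in effector cells adapted to the tissue.

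The central 300 bases of 5 peaks that the results below turn on are printed here, as RefSeq sequence of GRCm38, 5′ to 3′ on the plus strand. Capitals mark the letters TGANTCA (AP-1), GGAAAA (NFAT), GAAANNGAA (IRF) and TTCAAAG (TCF/LEF) on either strand, where N is any base, and the NFAT and IRF letters can share bases. The window upstream of Vgll4, the peak with the highest ratio of spleen to lung, is chr6:114991794-114992093, and most of it is a run of ct and gt repeats. The window upstream of Dock10, chr1:80855263-80855562, is shown for its AP-1 and TCF/LEF letters.
Vgll4: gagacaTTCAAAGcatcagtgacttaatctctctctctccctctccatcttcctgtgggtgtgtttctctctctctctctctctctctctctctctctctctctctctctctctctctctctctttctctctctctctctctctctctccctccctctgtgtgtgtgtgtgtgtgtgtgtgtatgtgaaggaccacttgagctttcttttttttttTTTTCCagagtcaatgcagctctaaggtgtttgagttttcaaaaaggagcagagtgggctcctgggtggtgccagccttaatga
Dock10: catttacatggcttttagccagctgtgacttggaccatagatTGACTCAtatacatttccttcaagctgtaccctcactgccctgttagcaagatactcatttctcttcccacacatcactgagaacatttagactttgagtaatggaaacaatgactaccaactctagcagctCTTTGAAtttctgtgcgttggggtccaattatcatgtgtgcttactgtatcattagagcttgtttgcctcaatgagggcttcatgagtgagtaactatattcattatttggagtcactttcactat
The window beyond Gata3, chr2:9770766-9771065, holds 2 NFAT matches. The window next to Pdcd1, chr1:94053574-94053873, is shown since it holds 2 NFAT, 2 IRF and 1 TCF/LEF match, with NFAT and IRF letters overlapping.
Gata3: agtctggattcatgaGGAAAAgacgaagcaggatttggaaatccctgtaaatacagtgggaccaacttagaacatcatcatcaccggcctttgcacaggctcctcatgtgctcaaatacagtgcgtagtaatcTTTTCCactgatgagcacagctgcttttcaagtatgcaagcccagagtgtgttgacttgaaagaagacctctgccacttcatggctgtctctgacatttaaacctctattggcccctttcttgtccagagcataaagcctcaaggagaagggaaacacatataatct
Pdcd1: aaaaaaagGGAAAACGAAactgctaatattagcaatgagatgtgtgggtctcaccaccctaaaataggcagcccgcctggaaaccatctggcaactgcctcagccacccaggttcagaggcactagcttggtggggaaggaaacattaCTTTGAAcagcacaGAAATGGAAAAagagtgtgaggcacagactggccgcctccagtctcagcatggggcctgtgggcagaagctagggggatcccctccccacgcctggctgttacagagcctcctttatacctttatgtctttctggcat
The window near Tmem192, chr8:64934874-64935173, belongs to the peak that differed between the genotypes in both tissues, and it holds none of the 4 motifs.
Tmem192: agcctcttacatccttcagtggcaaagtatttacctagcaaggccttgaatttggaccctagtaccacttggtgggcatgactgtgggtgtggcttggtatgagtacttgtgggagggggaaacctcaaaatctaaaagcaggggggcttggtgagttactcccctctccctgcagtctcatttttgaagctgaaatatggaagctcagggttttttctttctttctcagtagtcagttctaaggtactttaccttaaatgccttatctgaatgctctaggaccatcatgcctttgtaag

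The libraries held between 13932355 and 22439699 counts in spleen and between 9405823 and 14172956 in lung, so depth moved with tissue, and its part in the choice of peaks was not tested. The share of counts in peaks at gene starts was also higher in spleen (49.3% to 51.6%) than in lung (46.1% to 48.5%). Behind the smallest member value stood 42 counts in a spleen library and 2 counts in a lung library. Between 91.5% and 96.5% of the counts of a library were even, as they would be if both reads of a fragment were counted, so the number of fragments may be smaller. Promoter peaks of Foxp3 held 16.9 to 25.3 CPM and those of Cd3e, a chain of the TCR complex, 11.9 to 20.7 CPM over all libraries, and the table listed no promoter peak for Cd79a, Ms4a1, Klf1, Csf1r, Lyz2, Ncr1, Sftpc or Cdh5. Other markers of cells outside the sort did have one: Epcam, of epithelium, held 16.8 to 24.8 CPM, Gata1, of erythroid cells, 1.41 to 8.67 CPM, Cd8a 1.41 to 4.23 CPM and Pax5, of B cells, 0.357 to 1.69 CPM. Markers of other cells also differed between the tissues. The summed CPM of peaks assigned to 14 erythroid genes was 203 to 232 in the 6 spleen libraries and 138 to 173 in the 4 lung libraries, and 14 of the 47 autosomal erythroid peaks had a spleen to lung ratio of at least 1.5, as against 853 of all 94486 autosomal peaks. None of these 47 was a member, since those 14 stayed under 3 CPM in at least 1 spleen library. At the start of Slc4a1, the anion exchanger of red cells, the spleen controls read 3.30 and 8.13 CPM, the Vps34-deficient spleen libraries 2.50, 3.43, 3.70 and 1.72 CPM, and the lung libraries 0 to 0.706 CPM. Plasma cell peaks went the other way, with sums of 380 to 485 CPM in spleen and 530 to 732 CPM in lung. The part of other cells in the membership was not tested, and in bulk samples fewer cells of a type and less signal per cell cannot be told apart. Of the other marker lists, none had a member: 86 B cell, 48 myeloid, 55 CD8 and NK, 24 plasma cell and 103 lung epithelium and endothelium peaks.

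Within the 271 peaks the ratio of the lowest spleen to the highest lung value ran from 1.501 to 5.83 with a median of 1.69. It was at least 2 at 60 peaks and at least 3 at 11. The ratio of mean spleen to mean lung CPM ran from 1.67 to 10.0 with a median of 2.68. The highest lung value came from lung control replicate 1 at 51 peaks, lung control replicate 2 at 55, Vps34-deficient replicate 1 at 83 and Vps34-deficient replicate 2 at 82. The lowest spleen value came from control replicate 1 at 57 peaks and control replicate 2 at 83, and from a Vps34-deficient library at between 27 and 44 peaks each. Just inside the ratio lay peaks near Akr1d1, Klf6 and Tex26 (1.501, 1.502 and 1.502), and just outside lay peaks near Midn, Dusp10 and Tgm2 (1.499, 1.499 and 1.498). Just inside the minimum lay peaks near Chrm3 (3.01 CPM), Trpm1 and Ap1s3 (both 3.03 CPM), and just outside lay peaks near Lipc, Ssbp3 and Bbs10 (all 2.94 CPM).

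Peaks are named for the nearest protein-coding start, which need not be the gene they act on. The highest ratio, 5.83, belonged to a peak 21.9 kb upstream of Vgll4, a cofactor of TEAD transcription factors, at chr6:114991515-114992372. It read 4.46 and 3.72 CPM in control spleen, 7.79, 5.02, 4.69 and 6.60 CPM in Vps34-deficient spleen, and 0.487 to 0.638 CPM in the 4 lung libraries. An intronic peak of Gm281 (chr14:13895106-13895952) followed with a ratio of 5.76. Its 6 spleen values lay between 8.94 and 12.0 CPM, with the genotypes overlapping, and its lung values between 0.635 and 1.55 CPM. A peak 96.9 kb upstream of Dock10, an exchange factor for small GTPases in lymphocytes, at chr1:80855097-80855727, read 12.7 and 10.2 CPM in control spleen. It read 20.03, 11.9, 11.3 and 18.8 CPM in Vps34-deficient spleen, 2.98 and 1.83 CPM in control lung, and 0.975 and 1.48 CPM in Vps34-deficient lung. Vps34-deficient spleen replicates 1 and 4 stood above the other spleen libraries there. The intronic peak of Sema4d (chr13:51711961-51712461), a semaphorin of lymphocytes, read 5.53 and 5.79 CPM in control spleen and 6.86 to 8.81 CPM in Vps34-deficient spleen. In lung it read 0.638 and 0.564 CPM in controls and 1.62 and 1.06 CPM without Vps34, so that the genotypes did not overlap in either tissue. The rest of the 10 highest ratios, 4.32 to 3.13, belonged to peaks in an intron of Reep1 (named for Mrpl35), 681 kb upstream of Sel1l, in Adgrg6 and Magi2, in an exon of Boc and in an intron of C2cd3 (named for Ucp3). At the C2cd3 peak, spleen control replicate 2 stood apart at 8.95 CPM, with the other 5 spleen libraries between 3.98 and 5.60 CPM, the same library that was highest at the Slc4a1 start.

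**Figure D1:**
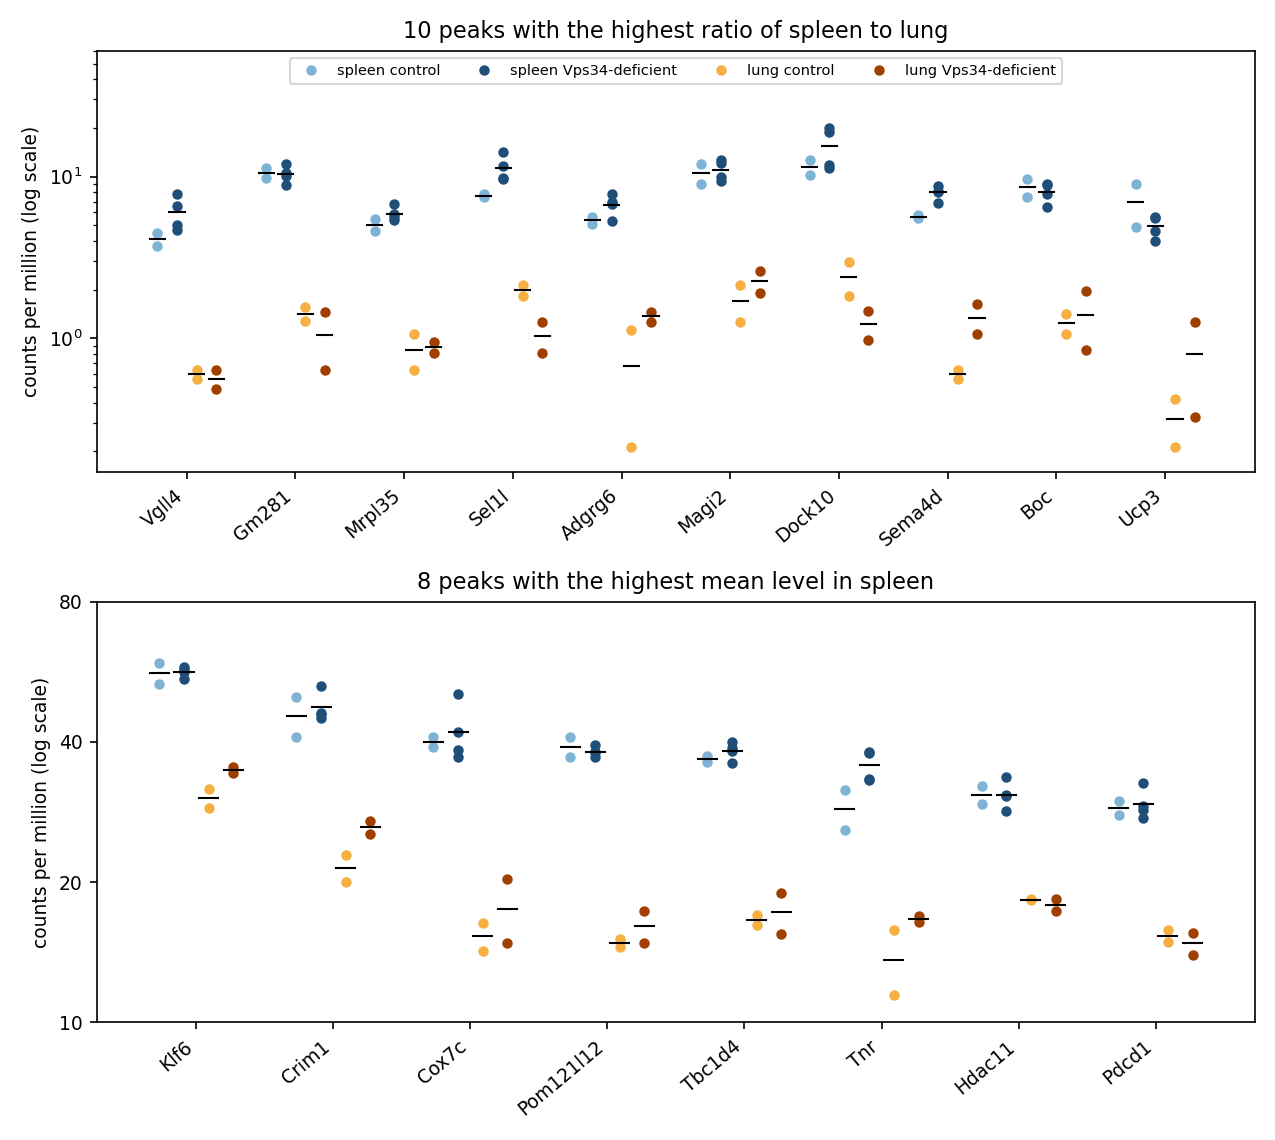
CPM (log axis) of single libraries at the 10 peaks with the highest spleen to lung ratio (top) and the 8 with the highest mean spleen level (bottom), by tissue and genotype, with a black bar at each group mean. Every spleen point lies above every lung point of the same peak, as the choice of the peaks requires, and the top row falls to 0.213 CPM in lung whereas the bottom row does not fall under 11.5 CPM.

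The highest spleen level, a mean of 56.4 CPM, was that of a peak 453 kb upstream of Klf6, a zinc finger transcription factor, at chr13:5408229-5408912. The spleen libraries read 53.2 to 59.1 CPM and the lung libraries 28.9 to 35.4 CPM, a ratio of 1.502, near the bound. Next came peaks near Crim1 (mean 46.8 CPM), Cox7c (41.4 CPM) and Pom121l12 (38.4 CPM), an intronic peak of Tbc1d4 (37.8 CPM), a peak in Tnr (33.3 CPM), a peak 2.94 kb upstream of Hdac11 (30.8 CPM) and a peak 1.17 kb upstream of Pdcd1 (29.3 CPM). The Pdcd1 peak, at chr1:94053464-94053982, lies beside the gene of the inhibitory receptor PD-1. It read 29.9 and 27.8 CPM in control spleen and 32.7, 29.2, 28.6 and 27.4 CPM in Vps34-deficient spleen, as against 14.9 and 15.8 CPM in control lung and 15.6 and 14.0 CPM in Vps34-deficient lung. The genotypes overlapped in both tissues.

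The 271 peaks were assigned to 251 genes, of which 18 had more than 1 peak. Tbc1d4, a Rab GTPase activator in glucose transport and T cell signalling, and Zfp703, a transcriptional repressor, had 3 each. The Tbc1d4 peaks all lay within its introns, 120 to 155 kb past the start, and differed widely in level. The strongest (chr14:101452909-101453476) read 36.0 to 39.9 CPM in spleen and 15.5 to 19 CPM in lung, whereas the middle one (chr14:101469874-101470190) read 4.06 to 5.45 CPM and 1.48 to 2.60 CPM. The third (chr14:101488188-101488704) read 10.2 and 8.95 CPM in control spleen and 15.4, 13.1, 12.8 and 16.1 CPM in Vps34-deficient spleen, with no overlap, and 2.75 to 4.22 CPM in lung. All 3 Zfp703 peaks lay 207 to 271 kb upstream, and their spleen means were 15, 8.30 and 3.6 CPM. Peaks in pairs were found, among others, at Boc, Casr, Cntn5, Elmo1, Gadd45g and Ipcef1, and 23 of the 271 peaks had another member within 50 kb.

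Gene lists for Treg biology held 1 or 2 of these peaks each. Their shares ran from 0.105% (lymphoid homing and resting T cell genes) to 0.772% (follicular and germinal centre genes). Of 954 autosomal peaks assigned to 28 genes of lymphoid homing and resting T cells (such as Ccr7 and Klf2), 1 was a member (0.105%, as against 0.287% of all autosomal peaks), an intronic peak of Foxp1, a forkhead factor of quiescent T cells. Its spleen values were 11.8 to 14.8 CPM and its lung values 3.39 to 7.15 CPM. Of 259 peaks of follicular and germinal centre genes, 2 were members, at Pdcd1 and upstream of Gpr183, the oxysterol receptor that places lymphocytes within lymphoid organs. The Gpr183 peak (chr14:121973781-121974275) read 4.31 to 8.28 CPM in spleen and 1.06 to 2.11 CPM in lung. Of 586 peaks of effector and tissue Treg genes, 1 was a member, 108 kb beyond the start of Gata3, the type 2 transcription factor that is also used by tissue Tregs. This peak (chr2:9770607-9771223) read 4.72 and 4.68 CPM in control spleen, 4.28 to 6.95 CPM in Vps34-deficient spleen, and 1.41 to 1.79 CPM in lung. The 449 peaks of TCR and AP-1 genes held 1 member, upstream of Prkcq, the kinase that couples the TCR to NF-kB. The 227 peaks of Treg identity and IL-2 genes held 1, upstream of Nrp1, a marker of thymic Tregs, and the 163 of Treg and T cell markers held 1, in an intron of the costimulatory receptor Cd28. With 0 to 2 members each, no list is told apart from the share over all peaks.

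Further members lay near regulators of T cells and were named after their values were seen. Il21r, the receptor for IL-21, had an intronic peak (chr7:125621626-125622028) with 7.90 to 12.2 CPM in spleen and 2.11 to 2.54 CPM in lung, a ratio of 3.11. A peak 5.64 kb upstream of Gfi1, a repressor needed in lymphoid development, read 11.3 to 13.9 CPM in spleen and 3.6 to 5.32 CPM in lung. At Bcl11b, a factor of T cell commitment, an intronic peak read 6.20 to 9.42 CPM in spleen and 2.82 to 3.19 CPM in lung. Zbtb7b, whose product ThPOK fixes the CD4 lineage, had a peak 25 bases from an annotated start, with 4.74 to 7.09 CPM in spleen and 1.48 to 2.40 CPM in lung. Other peaks lay near Runx1, Nfkb1, Smad3, Myc, Id2, Ahr, Fyn, Tespa1, Crtam and Ptger4, with ratios between 1.51 and 1.77.

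The peaks were distal. Only 6 of 271 (2.21%) lay within 1 kb of a protein-coding start, near Apeh, Pacsin1, Ptger1, St7, Tnp2 and Zbtb7b, as against 16.3% of all autosomal peaks and 30.6% of those that reached 3 CPM in every spleen library. The median distance to a start was 31.4 kb, compared with 20.1 kb and 9.84 kb in those sets. Of the members, 157 lay 10 to 100 kb from a start and 62 lay farther than 100 kb. By annotation 138 (50.9%) lay in introns, 107 (39.5%) between genes and 26 (9.59%) over an exon, where 20.4% of all autosomal peaks overlapped one. The mirrored rule, with lung above spleen by the same bounds, gave 211 peaks, of which 17 (8.06%) lay within 1 kb and whose median distance was 38.6 kb. Members were spread over all 19 autosomes, from 0.123% of the peaks on chromosome 15 to 0.510% on chromosome 13. Their median width was 497 bases, compared with 328 in all autosomal peaks and 524 in those at 3 CPM in every spleen library.

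**Figure D2:**
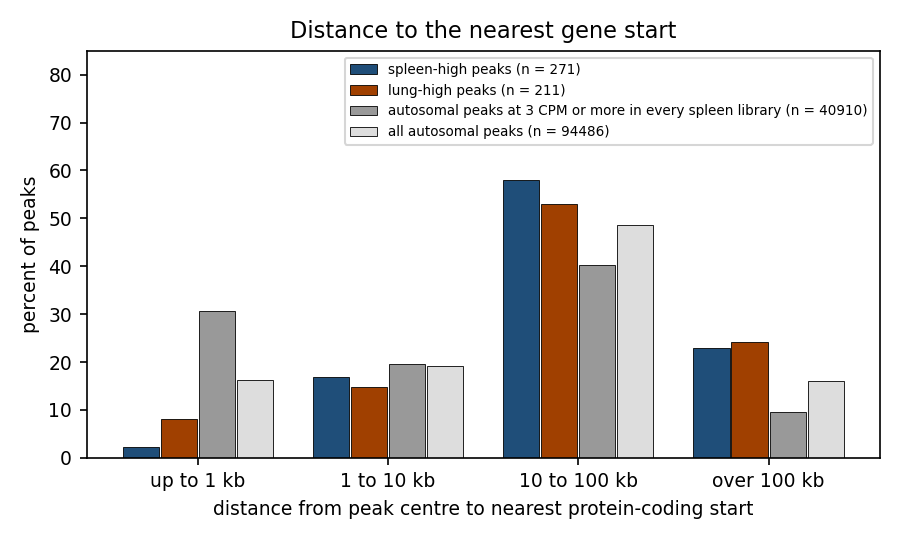
Percent of peaks by distance from the peak centre to the nearest protein-coding start, for spleen-high, lung-high, well covered and all autosomal peaks. Spleen-high peaks make up 2.21% of their set in the first class and 57.9% in the 10 to 100 kb class, compared with 16.3% and 48.6% of all autosomal peaks.

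Motif letters were counted in the central 300 bases of the 265 members over 1 kb from a start, beside the 28389 peaks over 1 kb from a start that reached 3 CPM in every spleen library. NFAT letters occurred in 88 members (33.2%, compared with 21.7%), AP-1 letters in 61 (23.0%, compared with 15.3%), IRF letters in 49 (18.5%, compared with 12.3%) and TCF/LEF letters in 36 (13.6%, compared with 8.84%). AP-1 and NFAT letters stood together in 17 members (6.42%, compared with 3.26%). The octamer ATGCAAAT, read by POU factors, occurred in 11 (4.15%, compared with 2.15%) and the GATA letters AGATAA in 55 (20.8%, compared with 15.6%). Less frequent in members were TGTGGT (RUNX; 22.6%, compared with 30.7%), AGGNGGC (part of the CTCF motif; 17.7%, compared with 25.2%), CCGGAA (ETS; 3.77%, compared with 7.47%) and CCCNNGGG (EBF; 5.28%, compared with 8.91%). Shares close to the larger set were seen for GGGNGTG (KLF; 28.3% and 26.4%), GAGGAAGT (PU.1; 4.53% and 5.98%) and CAGCTG (E-box; 16.6% and 19.8%), and GGGANTTCC (NF-kB) was found in 6 members (2.26%, compared with 2.27%). TGTTTAC (forkhead) occurred in 3.77% of members, compared with 4.71%, and in the central 200 bases in 3 members (1.13%, compared with 3.06%). In the 194 lung-high peaks over 1 kb from a start the NFAT share was 20.1%, AP-1 13.9%, IRF 9.79% and TCF/LEF 8.76%. Their CTCF (15.5%) and ETS (3.09%) shares were also under the larger set, whereas RUNX (32.5%) and EBF (9.79%) were not. The median GC content was 46.0% in members, 46.0% in the lung-high peaks and 48.7% in the larger set. As GGAAAA and TTCAAAG are AT-rich, base composition moved with these shares between members and the larger set, and its part was not tested. Matches to letters are a description and do not show binding.

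**Figure D3:**
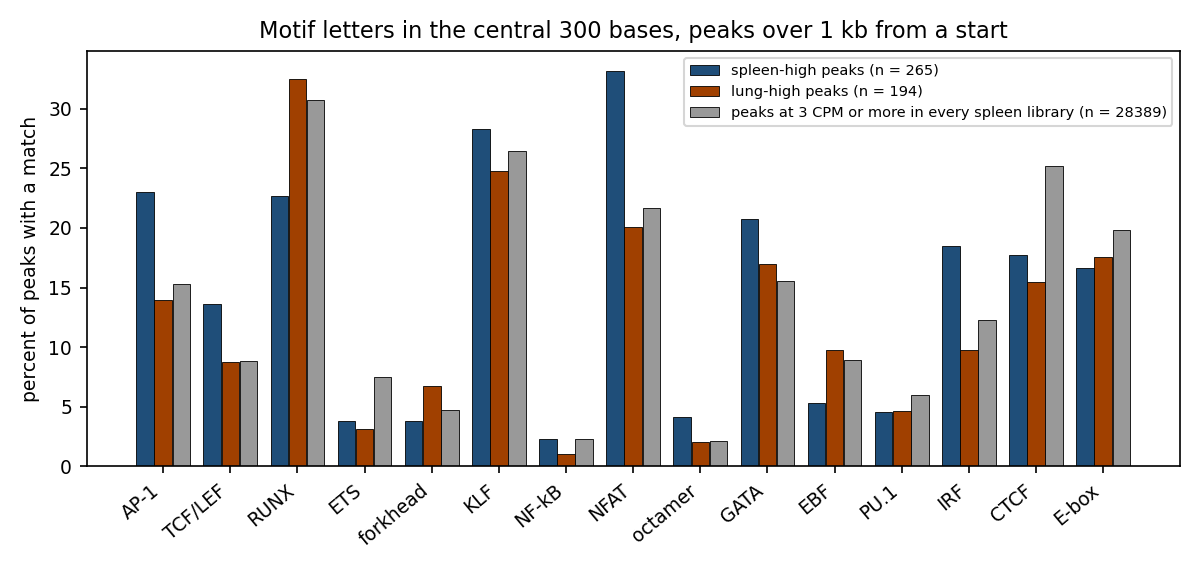
Percent of peaks over 1 kb from a start whose central 300 bases hold each motif, for spleen-high peaks (n = 265), lung-high peaks (n = 194) and peaks at 3 CPM or more in every spleen library (n = 28389). The bars of spleen-high peaks stand above both others for NFAT (33.2%), AP-1 (23.0%), IRF (18.5%) and TCF/LEF (13.6%), and below both for RUNX (22.6%).

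Loss of Vps34 was then examined within each tissue, which the choice of the peaks did not use, by edgeR's quasi-likelihood test on all 97109 tested peaks, with Benjamini-Hochberg adjustment. A peak was called at an adjusted p under 0.05 with a log2 fold change over 0.5 in either direction. All 271 members passed the filter on low counts. The choice still bounds these comparisons: a spleen library that fell far, or a lung library that rose far, would have removed the peak. In spleen, 1 member was higher without Vps34 (0.369%), beside 0.441% of all tested peaks and 0.469% of the 40910 well covered autosomal peaks. No member was lower, beside 1.02% and 0.878% of those sets. The median SE of the spleen log2 fold change was 0.23 in members, 0.31 in all tested peaks and 0.19 in well covered peaks. At an unadjusted p under 0.05 there were 24 higher and 1 lower of 271, beside 8799 higher and 5102 lower of all 97109 tested peaks, so that the share higher was near the background. DESeq2 over the 10 libraries called 1 higher and 0 lower. The log2 fold change of the members had a median of 0.13 (0.08 without Vps34-deficient spleen replicate 3) and was positive at 201 of 271 (74.2%), compared with a median of 0.05 and 56.5% over all tested peaks, and with -0.00 and 49.2% over the 40910 well covered autosomal peaks. Every Vps34-deficient spleen library exceeded both controls at 71 members (26.2%; 15% of all tested peaks), and every one lay under both controls at 5 (1.85%; 11.1%). Summed over the members, the spleen libraries held 2499 and 2432 CPM in controls and 2863, 2582, 2653 and 2687 CPM without Vps34. Vps34-deficient replicate 1 had the highest sum and was the highest spleen library at 105 of the 271 peaks. The genotypes did not overlap in this sum, which rests on 2 control libraries. Marker lists moved as well: the summed CPM of CD8 and NK peaks was 382 to 398 in controls and 402 to 431 without Vps34, and that of lung epithelium and endothelium peaks 568 to 583 and 603 to 627, and the promoter peaks of Gata1 4.63 to 4.96 and 5.98 to 8.67. The erythroid sums, which include the Gata1 peaks, overlapped (213 to 223 and 203 to 232). Their part in these differences was not tested.

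The member called in spleen lay 12.2 kb upstream of Tmem192, a lysosomal membrane protein, at chr8:64934478-64935569. It read 16.7 and 16.0 CPM in control spleen and 27.4, 26.4, 24.3 and 28.3 CPM in Vps34-deficient spleen, with a log2 fold change of 0.71 (SE 0.15, adjusted p = 0.0173 by edgeR). In lung it read 4.47 and 3.81 CPM in controls and 8.61 and 6.35 CPM without Vps34, with a log2 fold change of 0.85 (SE 0.22, adjusted p = 0.0235 by edgeR). The groups did not overlap in either tissue. The spleen call was lost without spleen control replicate 1 (adjusted p = 0.242 by edgeR) or 2 (0.199), and without Vps34-deficient replicate 1 (0.0620), 2 (0.0698) or 4 (0.0591), with a log2 fold change of 0.64 to 0.71 over all libraries left out. The lung call was lost without lung control replicate 2 (adjusted p = 0.160 by edgeR) and without lung Vps34-deficient replicate 1 (0.169). The next spleen differences were not called. At the intronic peak of Cd226, an activating receptor of T and NK cells (chr18:89253906-89254406), controls read 3.21 and 3.58 CPM and Vps34-deficient libraries 8.76, 5.81, 7.04 and 5.31 CPM, a log2 fold change of 0.99 (SE 0.27, adjusted p = 0.0688 by edgeR), the largest among the members in spleen. The third Tbc1d4 peak had a log2 fold change of 0.58 (SE 0.19, adjusted p = 0.134) and the Nrp1 peak one of 0.66 (SE 0.23, adjusted p = 0.169). The lowest value, -0.60 (SE 0.29, adjusted p = 0.339), was that of an intronic peak of Ranbp10, where control spleen read 5.79 and 10.6 CPM and Vps34-deficient spleen 4.28 to 6.95 CPM, so that spleen control replicate 2 again stood apart.

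In lung, 5 members were higher without Vps34 (1.85%; 1.22% of all tested peaks and 1.96% of the 40910 well covered ones), and no member was lower (3.74% of all tested peaks, and 4.60% of the 40910 well covered ones, were). The choice keeps lung values low. The median SE of the lung log2 fold change was 0.35 in members, 0.23 in well covered peaks and 0.38 in all tested peaks. The 0 is therefore not comparable with the share of well covered peaks, and the part of low lung values in it was not tested. At an unadjusted p under 0.05 there were 21 higher and 10 lower of 271, beside 8521 higher and 11184 lower of all 97109 tested peaks, so that neither share was above the background. DESeq2 over the 10 libraries called 6 higher and 0 lower. The median log2 fold change was 0.07 (between 0.06 and 0.17 with 1 library left out, the highest without Vps34-deficient lung replicate 2), compared with 0.02 over all tested peaks, and 158 of 271 (58.3%) were positive, compared with 51.8% of all tested and 45.0% of well covered peaks. Both Vps34-deficient lung libraries exceeded both controls at 64 members (23.6%; 23.8% of all tested peaks) and lay under both at 34 (12.5%; 22%).

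Besides the Tmem192 peak, the lung calls included 3 further peaks described here. A peak 36.7 kb upstream of E2f3, a cell cycle factor, read 1.49 and 1.55 CPM in control lung and 3.25 and 3.39 CPM in Vps34-deficient lung (log2 fold change 1.09, SE 0.31, adjusted p = 0.0373 by edgeR). The peak 2.32 kb into Ipcef1, a partner of cytohesins, read 0.638 and 0.564 CPM in control lung and 2.27 and 1.91 CPM in Vps34-deficient lung (log2 fold change 1.78, SE 0.50, adjusted p = 0.0374 by edgeR). An intronic peak of St6galnac3, a sialyltransferase, read 6.59 and 9.17 CPM in control lung and 12.5 and 14.2 CPM in Vps34-deficient lung (log2 fold change 0.71, SE 0.20, adjusted p = 0.0359 by edgeR). Each of these rested on 2 libraries a group, and neither these nor the Tmem192 peak was called when the 4 lung libraries were fitted alone (adjusted p = 0.177 for Ipcef1 to 0.292 for E2f3 by edgeR), a fit with fewer residual degrees of freedom. With a lung library left out, E2f3 reached adjusted p = 0.160, Ipcef1 0.209 and St6galnac3 0.106 at most. Leaving out Vps34-deficient spleen replicate 2 or 3 (E2f3; 0.0579 and 0.0540) or 1 or 2 (St6galnac3; 0.0515 and 0.0573) also took these just past the threshold. In lung the erythroid sum was 138 to 151 CPM in controls and 170 to 173 CPM without Vps34, the Gata1 promoter peaks 1.41 to 2.98 and 3.6 to 4.71 CPM, the CD8 and NK sum 392 to 407 and 425 to 432 CPM, the lung epithelium and endothelium sum 621 to 636 and 646 to 657 CPM, and the myeloid sum 201 to 202 and 164 to 183 CPM. Their part in the lung differences was not tested.

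**Figure D4:**
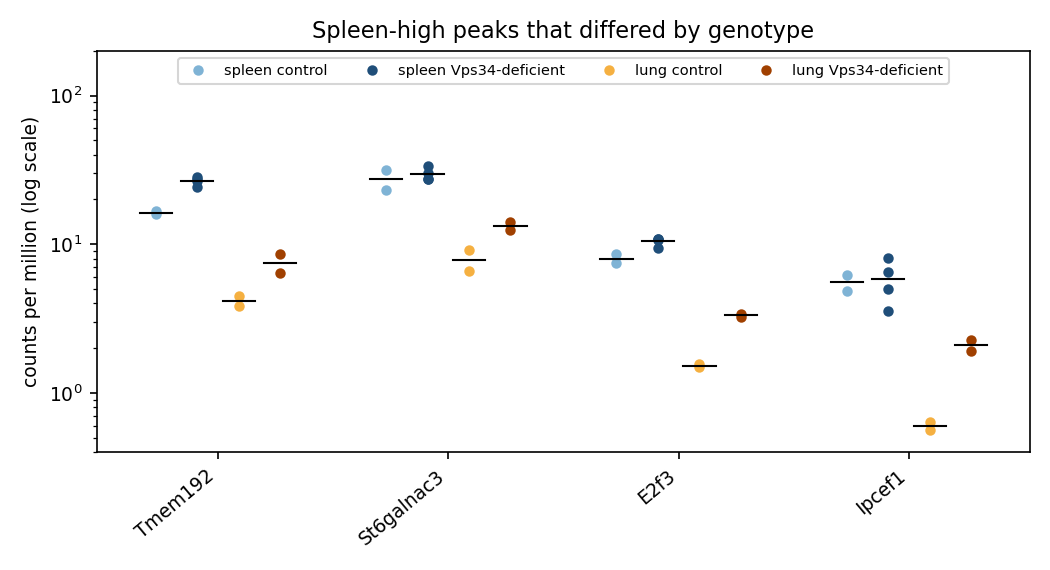
CPM (log axis) of single libraries at 4 members called for genotype, with a black bar at each group mean. In lung both Vps34-deficient points lie above both controls at all 4, and in spleen Tmem192 and E2f3 separate the genotypes.

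**Figure D5:**
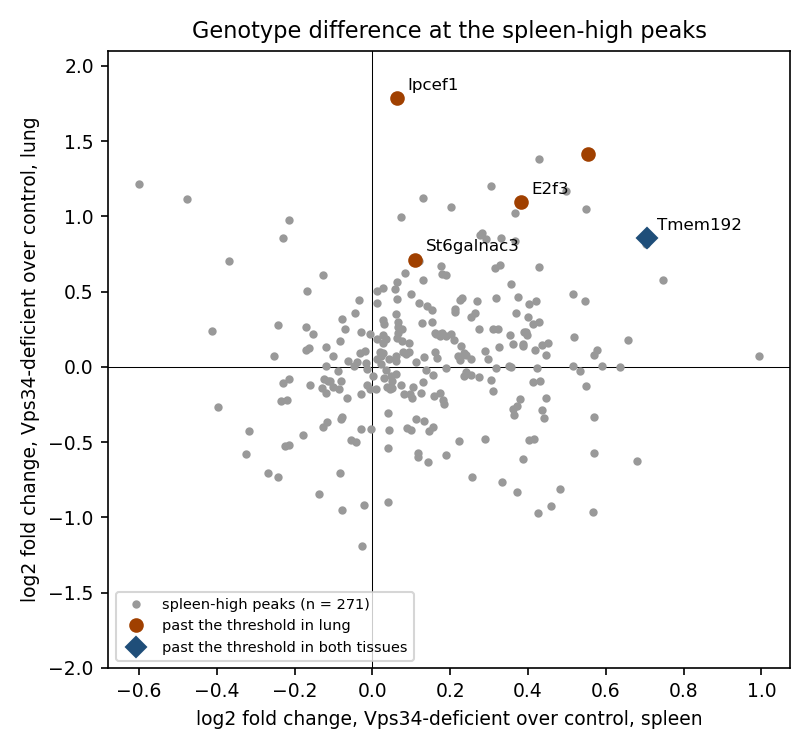
Log2 fold change of Vps34-deficient over control Tregs in spleen (horizontal) and lung (vertical) at the 271 members, with 4 of the 5 called peaks named. Most points lie right of 0 (201 of 271), whereas 158 lie above 0 in lung, and Tmem192 is the peak past the threshold in both tissues.

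Genotype effects were also compared between the tissues. The interaction gave 0 calls among the members and 0 among all 97109 tested peaks (0%), by edgeR, with the smallest adjusted p among members at 0.408 for a peak 40.7 kb upstream of Casr. At an unadjusted p under 0.05 there were 20 of 271 members, beside 7060 of all 97109 tested peaks, a like share, and DESeq2 called 0. At that Casr peak, named for the calcium-sensing receptor, control spleen read 20.4 and 19.6 CPM and Vps34-deficient spleen 23.0 to 30.3 CPM, whereas control lung read 11.3 and 11.4 CPM and Vps34-deficient lung 8.93 and 7.41 CPM. The log2 fold changes were 0.40 (SE 0.15) and -0.49 (SE 0.19). None of the list members at Foxp1, Pdcd1, Gpr183, Gata3, Prkcq, Nrp1 and Cd28 was called in either tissue. Their log2 fold changes lay between -0.13 and 0.66 in spleen and between -0.35 and 0.89 in lung. At the Pdcd1 peak they were 0.03 (SE 0.12) and -0.08 (SE 0.16), and at the Gata3 peak 0.22 (SE 0.25) and 0.07 (SE 0.40). Across their whole lists, effector and tissue Treg genes had 0 peaks higher and 39 lower of 586 in spleen, and 2 higher and 101 lower in lung, whereas lymphoid homing and resting genes had 3 higher and 5 lower of 954 in spleen, and 25 higher and 31 lower in lung. Of all 94486 autosomal peaks, 418 were higher and 985 lower in spleen, and 1168 were higher and 3587 lower in lung.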

How the data were processed

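ATAC-seq of sorted Tregs gave 1 table of counts per peak, deposited by the authors as whole numbers without normalization. The submitters' processing notes name cutadapt 1.9, Picard 1.65, SAMtools, MACS2 2.1.0.20150603 and bedtools with mm10/GRCm38, whereas the methods name mm9. In GRCm38, 51.3% of protein-coding starts fell in a peak (2.83% after a shift of 100000 bases), so GRCm38 was used with GENCODE vM21 starts. Between 91.5% and 96.5% of counts were even, so they may count both reads of a fragment. CPM used column totals and all 10 libraries. Library labels, not the methods text (which swaps the spleen group sizes), set the groups, and labels do not say whether replicates are separate mice, so p-values measure the spread between samples. edgeR 4.0.16 (TMM, filterByExpr, 4 groups, glmQLFTest; R 4.3.3) was the main test, tested on simulated data, with DESeq2 1.42.0 as an alternative. The precision is that of a common biological coefficient of variation of 17.8%. Members and gene lists were chosen with earlier results of these data known. Named were the 10 highest ratios, the 8 highest levels, genes with most members, called members (except 1 called in lung, not reported here), list members and peaks at the bounds. Further peaks near T cell regulators, those within 1 kb of a start and the Ranbp10 peak were named after their values were seen. Other scalings, filters, left-out libraries, promoter distances and windows were tried.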

Additional observations from a re-analysis of the deposited data

Results flagged for a closer look

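Among the 4 Vps34-deficient spleen libraries, 47 named peaks and the sum over the members were searched for 1 library far from the others, which by chance marks about 1 of 20 groups. It found 4 peaks. At the E2f3 peak replicate 1 was low, with 9.46 CPM beside 10.6, 10.8 and 10.8 CPM. Replicate 1 was high at the Crim1 peak, with 52.7 CPM beside 45.1, 45.9 and 46.2 CPM. At the Foxp1 peak replicate 4 was high, with 14.8 CPM beside 12.1, 12.2 and 12.3 CPM. The Cntn5 peak nearer its gene read 4.42 CPM in replicate 3 beside 3.06, 3.06 and 3.16 CPM, close to the minimum of the choice. None of the 4 peaks was called in spleen.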

How the results depend on the processing

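The number of members was 273 with autosomal totals and 215 with TMM factors, 60 at a ratio of 2, 840 at 5:4, 169 at a minimum of 5 CPM and 629 at 1 CPM. Leaving out 1 library cannot lower this number, since the rule uses the lowest spleen and the highest lung value. It gave 284 to 487, with 441 without lung control replicate 2 and 487 and 435 without lung Vps34-deficient replicate 1 or 2. Members higher in spleen numbered 0 with the replicate block, 2 in spleen alone, 2 with halved counts, 3 by DESeq2 run per tissue on library sizes, and 0 at a ratio of 2, and 0 to 2 with 1 library left out. Those higher in lung numbered 1 with the block, 0 in lung alone, 3 with halved counts, 0 by DESeq2 in each tissue and 1 at a ratio of 2, and 1 to 6 with 1 library left out. Members lower in lung numbered 0 to 1 with 1 library left out, 1 without either lung Vps34-deficient library. Control and Vps34-deficient libraries of the same tissue and replicate number showed no positive correlation in their deviations from group means (-0.05, -0.04 and -0.10). Spleen and lung libraries of the same number were not compared, so whether they share a mouse is not known. The spleen median (0.13) was 0.20 at a ratio of 2, and 0.078 to 0.126 with 1 library left out (0.078 without Vps34-deficient replicate 3). The lung median was 0.10 with median-of-ratios scaling, 0.11 by DESeq2 and 0.12 with halved counts, and 0.063 to 0.17 with 1 library left out (0.11 and 0.15 without spleen control replicate 1 or 2, 0.14 and 0.17 without Vps34-deficient replicate 1 or 2 of lung, 0.14 without control replicate 1 of lung). In 200 bases NFAT letters occurred in 25.5% of all members (32.8% in 300) and TCF/LEF letters in 9.59% (13.7%). No direction reversed in these alternatives, and the cause of the changes was not tested. A group left with 1 library is assumed to vary like the others. Halved counts and DESeq2 in each tissue were added after seeing the data. At 2 counts in a lung library, low lung values are imprecise.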
